A study of Mus musculus with 4 samples.

Results

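Elastic fibre genes are described here in lung tissue of mice that carried melanoma metastases. They are 10 genes chosen by symbol, Eln, Fbn1, Fbln1, Fbln5, Mfap4, Mfap5, Lox, Loxl1, Ltbp4 and Emilin1, out of 21499 distinct symbols with a value in each library. Here 2 Lf-/- mice, which lack lactoferrin (the iron-binding protein encoded by Ltf), are set against 2 wild-type (WT) mice. All 4 animals are labelled C57B/L6 males, received 200000 B16-F10 melanoma cells into the tail vein at 8 weeks of age, and were killed 3 weeks later. Each library is 1 mouse, out of 10 mice per genotype, and the lung around the colonies was taken without tumour, per the labels. How the Lf-/- allele was made, and whether the WT mice were littermates, is not given in the sources used here.

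An elastic fibre has a core of cross-linked elastin laid down on a scaffold of fibrillin microfibrils. Fibulins and latent TGF-beta binding proteins bring the elastin precursor to the microfibril, and lysyl oxidases turn lysines of elastin into the aldehydes that form the cross-links. In lung the fibres run through the tips of the alveolar septa, the walls of vessels and airways and the pleura, where they give the organ its recoil. Smooth muscle cells, myofibroblasts and fibroblasts are their known makers, mostly during growth, and the finished fibre is long-lived.

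Levels are given as FPKM, the sequenced fragments of a gene divided by its length in kilobases and scaled to the size of that library. FPKM corrects for transcript length, so levels can be set side by side between genes, but it carries no read counts, and the depth of each library is unknown. FPKM summed to 388799 and 317976 in Lf-/- mice 1 and 2, and to 400153 and 375543 in WT mice 1 and 2. Without Scgb1a1, listed at 0 in Lf-/- mouse 2, the sums were 318818 and 317976 in Lf-/- mice and 327216 and 315089 in WT mice. Ltf had 0.104 and 0.533 FPKM in Lf-/- mice, against 79.2 and 7.32 FPKM in WT mice. The labelled tissue carried its defining genes: Sftpc, a surfactant gene of alveolar type 2 cells, lay between 17185 and 21592 FPKM in all 4 libraries. The other 7 type 2 genes of a list of 8 lay lower in both Lf-/- mice than in both WT mice, against 17.5% of genes tested. The list median was -0.63 on the log2 scale. All 6 type 1 genes had a higher mean in Lf-/- lung, with a median of 0.36. Of them 3 lay higher in both Lf-/- mice than in both WT mice, against 18.5% of genes tested. Of these 14 genes 0 passed the threshold. The labelled sex was not borne out in every mouse: Ddx3y, on the Y chromosome, had 14.5 and 12.1 FPKM in Lf-/- mice and was listed at 0 in both WT mice. What goes with genotype and what goes with Y-linked transcripts cannot be told apart in these 4 mice. Single libraries also stood apart. In Lf-/- mouse 2 the club cell gene Scgb1a1 was listed at 0, and the 8 alveolar macrophage markers found in the files summed to 65.0 FPKM, against 420.04 to 646 in the other libraries. WT mouse 1 carried 251 FPKM of 6 fat genes, against 14.8 to 18.0 elsewhere, and WT mouse 2 carried 105 FPKM of 7 melanocyte genes, against 4.68 to 8.71 elsewhere.

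None of the 10 elastic fibre genes passed the test for a difference between genotypes. All 10 passed the filter on low values (2 or more libraries at an FPKM of 1 or above). Of them 0 passed an adjusted p of 0.05 in limma's moderated test over 12573 genes, where 0.0239% of genes passed. That share is 3 genes, and 2 of them, Eif2s3y and Ddx3y, are Y-linked. At an unadjusted p under 0.05 by limma the count of members was also 0, against 5.11% of genes tested. The adjusted p of the members lay between 0.89 and 0.981. Of the 10 genes, 8 lay lower and 2 higher in Lf-/- lung, with a median log2 difference of -0.18, against -0.005 over all genes tested. Both Lf-/- libraries lay below both WT libraries for 2 members (Mfap4 and Emilin1), against 17.5% of genes tested, and above both WT libraries for 0 members, against 18.5% (36% for both directions together). In bulk tissue, fewer cells of a type and less RNA per cell cannot be told apart. With 2 mice against 2, an exact two-sided permutation test of a single gene cannot go below a p of 0.33, so none is given.

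**Figure D1:**
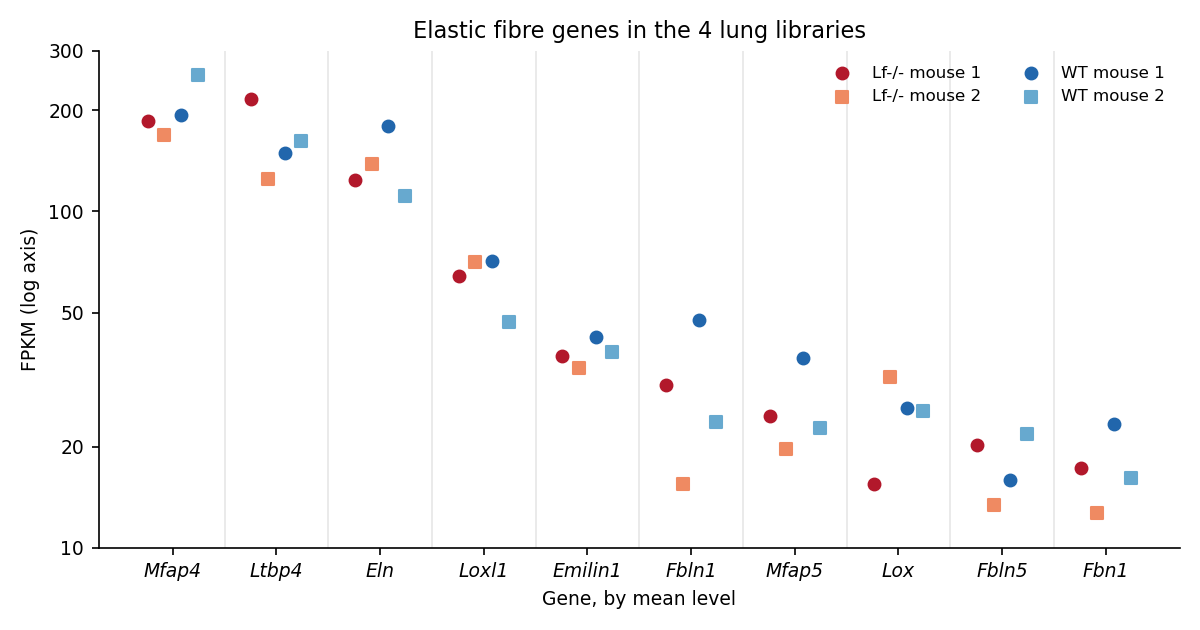
FPKM of each elastic fibre gene (log axis) in each of the 4 libraries, with genes ordered by mean level. Each point is 1 mouse: the libraries of both genotypes interleave for 8 of 10 genes, and only Mfap4 and Emilin1 have both Lf-/- points under both WT points.

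Eln encodes tropoelastin, the soluble precursor of the elastic core (chromosome 5, 134702593 to 134747323, minus strand, GRCm38). It had 124 and 138 FPKM in Lf-/- mice 1 and 2, against 180 and 111 FPKM in WT mice 1 and 2. The WT mice bracketed both Lf-/- mice, 1.62-fold apart from each other, so the groups overlapped. On the log2(FPKM + 1) scale, which understates the change of low genes, the difference of Lf-/- minus WT was -0.11 (SE 0.26, 95% interval -0.81 to 0.59 from limma). As a fold that interval runs from 0.572 to 1.5. The direction rested on single mice: the difference was 0.24 without WT mouse 1 and -0.46 without WT mouse 2.

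The lysyl oxidases did not share a pattern. Lox, the founding member of the family (chromosome 18, 52516067 to 52529867, minus strand), had 15.5 and 32.1 FPKM in Lf-/- mice, against 26.0 and 25.5 FPKM in WT mice. The Lf-/- mice held the lowest and the highest value, 2.07-fold apart, on either side of a pair of WT mice that nearly coincided. The difference was -0.19 (SE 0.35, 95% interval -1.11 to 0.72), and 0.31 without Lf-/- mouse 1. Loxl1, which binds fibulin-5 and is needed to keep elastin renewed in adult tissue in mice, had 64.2 and 70.5 FPKM in Lf-/- mice, against 71.4 and 46.8 FPKM in WT mice. WT mouse 2 alone lay low, and the groups overlapped (difference 0.22, SE 0.23, 95% interval -0.39 to 0.82, and -0.08 without WT mouse 2). Loxl1 lies on chromosome 9 (58287738 to 58313186, minus strand), 52.7 Mb from Ltf on the same chromosome. Per 100 FPKM of Eln, Lox and Loxl1 together came to 64.4 and 74.3 FPKM in Lf-/- mice and to 54.2 and 65.2 FPKM in WT mice, again with overlap. Lox per 100 FPKM of Loxl1 was 24.2 and 45.6 in Lf-/- mice and 36.5 and 54.5 in WT mice.

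Fbn1 and Mfap5 encode parts of the microfibril scaffold. Fbn1, which encodes fibrillin-1, the main structural protein of the microfibril (chromosome 2, 125300594 to 125507993, minus strand), had 17.3 and 12.7 FPKM in Lf-/- mice, against 23.3 and 16.1 FPKM in WT mice. Lf-/- mouse 1 lay between the WT mice, so the groups overlapped (difference -0.37, SE 0.24, 95% interval -1.0 to 0.26). It lay between -0.62 without WT mouse 2 and -0.11 without WT mouse 1. Mfap5 encodes the small microfibril-associated glycoprotein MAGP-2 (chromosome 6, 122505845 to 122529290, plus strand). It had 24.6 and 19.7 FPKM in Lf-/- mice, against 36.6 and 22.7 FPKM in WT mice. WT mouse 1 lay above the other mice, and the difference of -0.37 (SE 0.26) came to -0.04 without it and to -0.71 without WT mouse 2. Both genes were highest in WT mouse 1 and lowest in Lf-/- mouse 2.

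Mfap4 was the most abundant member in mean FPKM. It encodes a fibrinogen-related glycoprotein that binds elastin and fibrillin (chromosome 11, 61485431 to 61488900, plus strand), and had 185 and 169 FPKM in Lf-/- mice, against 193 and 255 FPKM in WT mice. Both Lf-/- mice lay below both WT mice, but Lf-/- mouse 1 and WT mouse 1 were closer to each other than the WT mice were. The difference was -0.33 (SE 0.19, 95% interval -0.83 to 0.18, limma adjusted p = 0.89), and came to -0.13 without WT mouse 2 and -0.53 without WT mouse 1. Mapk7 overlaps Mfap4 on the other strand, and the strand setting of the counting is not given in the sources used here, so reads of the pair may not be fully separated. Mapk7 had 8.66 and 8.14 FPKM in Lf-/- mice and 8.10 and 6.98 FPKM in WT mice. The same limit holds for Fbn1, which Gm9913 overlaps on the other strand (0.152 and 0.106 FPKM in Lf-/- mice, 0.104 and 0.0726 FPKM in WT mice), and for Eln and Lox, which overlap annotated antisense genes not used here.

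Emilin1, whose product sits between elastin and the microfibrils and holds back the maturation of TGF-beta (chromosome 5, 30913402 to 30921277, plus strand), was the steadiest member. It had 37.2 and 34.2 FPKM in Lf-/- mice, against 42.3 and 38.1 FPKM in WT mice. The 4 values lay within a 1.24-fold range, and Lf-/- mouse 1 and WT mouse 2 were less than 1 FPKM apart. The difference was -0.17 (SE 0.12, 95% interval -0.49 to 0.16, limma adjusted p = 0.892), and lay between -0.24 without WT mouse 2 and -0.09 without WT mouse 1. It was the only member whose genotype difference exceeded the gap between the 2 mice of either genotype, which was 0.15 at most on the log2 scale. Over all genes tested, 77.3% had a difference smaller than the larger of those gaps.

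The fibulins tether elastin to other matrix proteins. Fbln1, found in elastic fibres and in basement membranes (chromosome 15, 85205949 to 85286535, plus strand), had 30.5 and 15.4 FPKM in Lf-/- mice, against 47.6 and 23.6 FPKM in WT mice. It varied most of the 10, with a 3.08-fold range and a 2-fold gap inside each genotype, and the groups overlapped. The difference of -0.60 (SE 0.46, 95% interval -1.81 to 0.61) was the largest of any member, and lay between -1.09 and -0.11 as each library was left out. Fbln5 encodes fibulin-5, which brings tropoelastin and the cross-linking enzymes together and binds integrins (chromosome 12, 101746565 to 101819055, minus strand). It had 20.2 and 13.4 FPKM in Lf-/- mice, against 15.9 and 21.8 FPKM in WT mice. The mice of the 2 genotypes alternated in rank (difference -0.17, SE 0.25, 95% interval -0.83 to 0.50), and the difference was 0.11 without Lf-/- mouse 2 and 0.05 without WT mouse 2.

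Ltbp4 encodes a latent TGF-beta binding protein that carries fibulin-5 to the microfibril, and mice without it have enlarged air spaces (chromosome 7, 27305136 to 27337692, minus strand). It had 215 and 125 FPKM in Lf-/- mice, against 149 and 161 FPKM in WT mice. As for Lox, the Lf-/- mice lay on either side of the WT mice, here with mouse 1 on top. The difference was 0.08 (SE 0.29, 95% interval -0.68 to 0.84), and -0.31 without Lf-/- mouse 1.

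**Figure D2:**
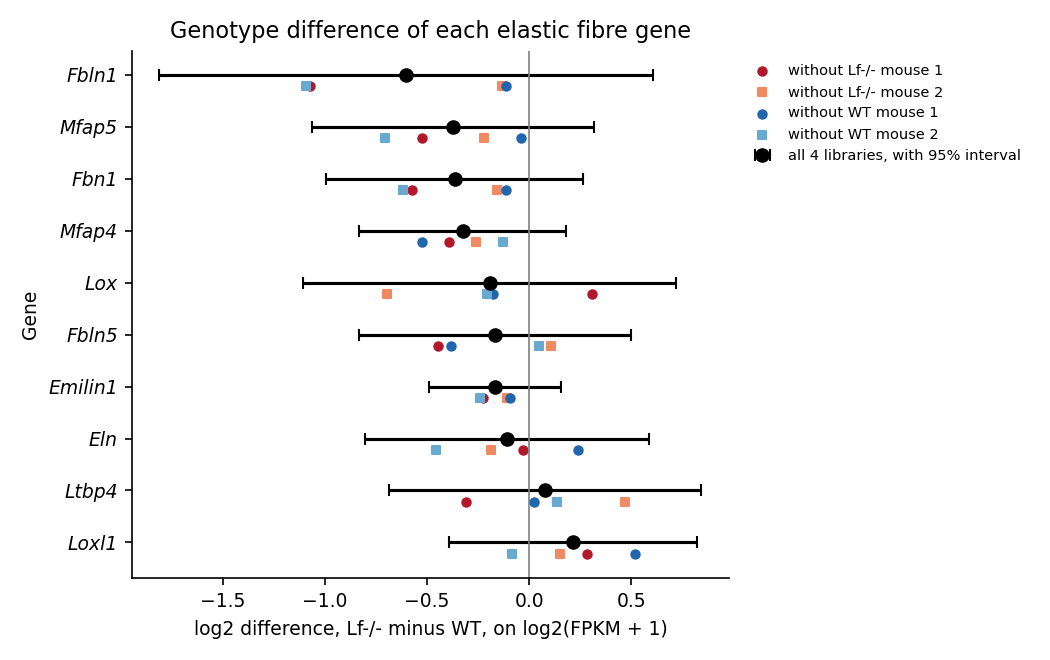
Log2 difference of Lf-/- minus WT for each elastic fibre gene on the log2(FPKM + 1) scale, with the 95% interval of limma's fit (black) and the difference with each library left out (coloured points). Every interval spans 0, and Eln, Lox, Fbln5, Ltbp4 and Loxl1 have left-out points on both sides of 0.

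Summed over the 10 members, FPKM came to 733 and 629 in Lf-/- mice and to 785 and 721 in WT mice, a ratio of means of 0.905 with overlapping groups. Mfap4, Ltbp4 and Eln made up most of the sum in every library. Mfap4 held 25.2% and 26.8% in Lf-/- mice and 24.6% and 35.3% in WT mice. Ltbp4 held 29.3% and 19.8% in Lf-/- mice and 19.0% and 22.4% in WT mice. Eln held 16.9% and 21.9% in Lf-/- mice and 22.9% and 15.4% in WT mice. The order of these genes thus changed from mouse to mouse: Ltbp4 led in Lf-/- mouse 1 and Mfap4 in the other 3 libraries. At the low end Fbn1 and Fbln5, with means of 17.4 and 17.8 FPKM over the 4 libraries, did not differ beyond their spread.

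The mice of a genotype differed more in these genes than in most genes of like level. The SD within genotype on the log2 scale had a median of 0.35 over the 10 members, against 0.14 over the 3238 genes tested whose mean lay in the members' range of 17.4 to 200.3 FPKM. All members but Emilin1 lay above that median. Fbln1, at 0.68, was at the 96.9th percentile of those genes and Lox, at 0.50, at the 94.7th, while Emilin1, at 0.09, was at the 30.4th. Such a spread was not particular to the members. The median was 0.52 for collagens and proteoglycans, 0.46 for pericyte, 0.73 for smooth muscle and myofibroblast and 0.79 for mesothelial genes. It was lower for other microfibril and elastic fibre genes (0.26) and for the fibroblast list (0.22). These lists were not matched for level. All these values describe 4 mice, and the genes of a library share its piece of tissue.

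**Figure D3:**
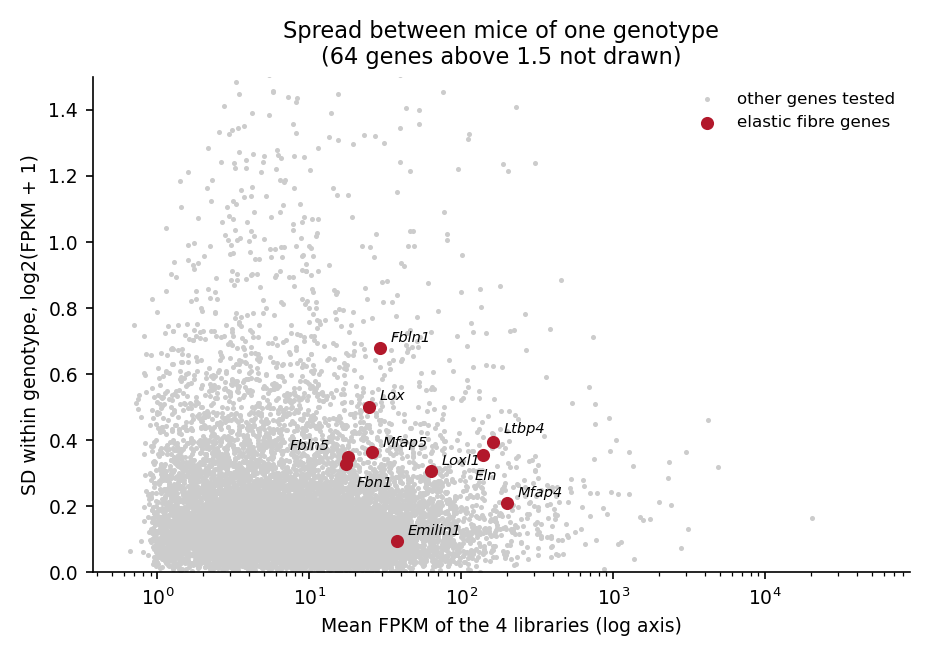
SD between mice of the same genotype on the log2(FPKM + 1) scale against mean FPKM (log axis), for elastic fibre genes (red) and the other genes tested (grey). Of the 10 elastic fibre genes, 9 lie above 0.2 and Emilin1 lies at 0.09; 64 genes with an SD over 1.5 are not drawn.

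The libraries ranked the members in a few recurring orders, which were looked at after the values were seen. Fbn1, Fbln1 and Mfap5 were each highest in WT mouse 1, then Lf-/- mouse 1, WT mouse 2 and Lf-/- mouse 2, an order held by 4.51% of genes tested. In the list of fibroblast markers 2 of 12 genes had this order, and in the list of collagens and proteoglycans 4 of 19. So did 2 of 6 mesothelial genes tested and 2 of 11 smooth muscle and myofibroblast genes tested, so the order was not particular to fibroblast markers. Pi16, a marker of fibroblasts around vessels and airways, had 15.2 and 8.47 FPKM in Lf-/- mice and 26.1 and 9.44 FPKM in WT mice. Dcn, the proteoglycan decorin, had 107 and 31.4 FPKM in Lf-/- mice and 126 and 58.3 FPKM in WT mice, and Lum and Scara5 followed the same order. Dpt, which encodes the matrix protein dermatopontin and stands in the fibroblast list too, did not: it had 142 and 126 FPKM in Lf-/- mice and 119 and 54.3 FPKM in WT mice. In that list 7 of 12 genes lay higher in both Lf-/- mice, against 18.5% of genes tested, among them Tcf21, a transcription factor of lung fibroblasts, with 92.9 and 92.7 FPKM in Lf-/- mice, against 76.3 and 66.9 FPKM in WT mice. The summed level of the fibroblast list was 3149 and 2608 FPKM in Lf-/- mice and 2202 and 1974 FPKM in WT mice. Inmt, a methyltransferase gene, made up most of that sum, and without it the list summed to 837 and 757 FPKM in Lf-/- mice and 780 and 600 FPKM in WT mice, with overlap.

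Eln and Loxl1 shared another order, with WT mouse 1 highest, then Lf-/- mouse 2, Lf-/- mouse 1 and WT mouse 2, held by 5.94% of genes tested. So did 5 of 11 smooth muscle and myofibroblast genes tested and 7 of 7 genes of cardiac muscle, which ensheathes the pulmonary veins in mice. Tagln, an actin-binding protein of smooth muscle, had 190 and 223 FPKM in Lf-/- mice and 311 and 114 FPKM in WT mice. The smooth muscle and myofibroblast list summed to 701 and 760 FPKM in Lf-/- mice and to 1201 and 440.2 FPKM in WT mice. The cardiac list summed to 318 and 827 FPKM in Lf-/- mice and to 1335 and 219 FPKM in WT mice. Eln varied less than those genes: per 100 FPKM of Acta2 it had 49.8 and 59.4 FPKM in Lf-/- mice and 42.0 and 76.6 FPKM in WT mice. Of 6 mesothelial genes tested, 5 were highest in WT mouse 1, as Eln was. Their list summed to 203 and 292 FPKM in Lf-/- mice and 251 and 156 FPKM in WT mice, most of it Krt19, which airway epithelium makes too. Without Krt19 it summed to 55.8 and 57.8 FPKM in Lf-/- mice and 96.3 and 44.0 FPKM in WT mice. Of 8 cartilage genes in the files 5 stayed under 1 FPKM in all libraries. Comp and Col2a1 went above it in WT mouse 1 only, at 1.29 and 1.11 FPKM. Chad, the only cartilage gene tested, had 23.1 and 37.0 FPKM in Lf-/- mice and 53.4 and 16.5 FPKM in WT mice, in the library order of Eln. The pericyte list, with 7 of 8 genes in the files, summed to 224 and 144 FPKM in Lf-/- mice and 176 and 158 FPKM in WT mice. All 10 endothelial genes had a higher mean in Lf-/- lung, and 0 passed the threshold. Of them 5 lay higher in both Lf-/- mice than in both WT mice, against 18.5% of genes tested. Their sums were 1512 and 1735 FPKM in Lf-/- mice and 1326 and 1404 FPKM in WT mice. The part of large vessels, veins, airways and pleura in each piece of lung, and its bearing on the elastic fibre genes, was not tested.

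The genes whose profile over the 4 libraries lay nearest to that of Eln were Mmp19, a metalloproteinase, Acadvl, Mdh1, Dnajc15 and Igkv14-111. Their distance from Eln, on log2 deviations from each gene's mean, was 0.063 to 0.103, among 5533 genes tested with a mean FPKM of at least 10. Mmp19 had 9.58 and 10.8 FPKM in Lf-/- mice and 15.0 and 8.90 FPKM in WT mice. The library order of Eln alone was shared by 747 genes tested.

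**Figure D4:**
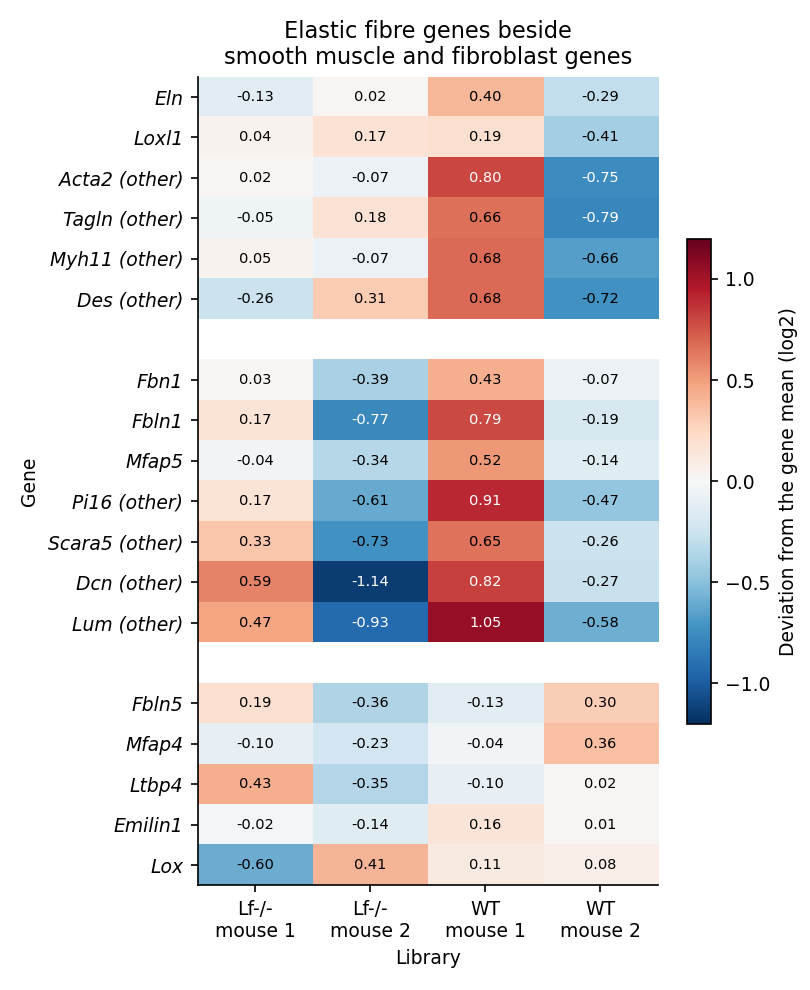
Deviation of each gene from its mean over the 4 libraries, on the log2(FPKM + 1) scale, for elastic fibre genes and for smooth muscle and fibroblast genes marked as other. Red is above and blue below the gene's mean. Eln and Loxl1 vary with the drawn smooth muscle genes in WT mice, which are a pick from their list. Of 11 genes tested in that list 10 are highest in WT mouse 1, and 5 have the library order of Eln. Not drawn are Hhip, higher in WT mouse 2 (3.25 and 4.38 FPKM), and Aspn, nearly level in WT mice (10.7 and 10.0 FPKM). Fbn1, Fbln1 and Mfap5 have the library order of Pi16, Scara5, Dcn and Lum, which were picked for that order after their values were seen. In the fibroblast list 2 of 12 genes have it, and 7 of 12 lie higher in both Lf-/- mice. Of the 10 elastic fibre genes 7 are lowest in Lf-/- mouse 2.

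Lf-/- mouse 2 had the lowest value of 7 of the 10 members (Fbn1, Fbln1, Fbln5, Mfap4, Mfap5, Ltbp4 and Emilin1), where 34.4% of genes tested were lowest in that library. Lox was highest in the same library, and Eln and Loxl1 were second highest in it. Low values in Lf-/- mouse 2 were not particular to the members. Lowest there were also 13 of 21 other microfibril and elastic fibre genes tested, 6 of 7 pericyte and 7 of 8 type 2 genes. In the fibroblast list 2 of 12 genes were, and in the endothelial list 0 of 10. Without Lf-/- mouse 2 the median difference of the 10 genes was -0.14, and 3 lay lower and 1 higher outside the range of the WT mice. Without Lf-/- mouse 1 it was -0.35, with 7 lower and 1 higher. With a single mouse on one side such orders come up more often, so these counts are not comparable with those of all 4 libraries.

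Promoter windows in RefSeq (GRCm38.p6) matched 5 of the 10 members, Fbn1, Fbln1, Fbln5, Ltbp4 and Emilin1, with 9 windows in all. Each window runs from 250 bases before to 50 bases after an annotated start. Those of Fbn1 and Fbln1 are shown because these genes shared a library order, and that of Fbln5 because this fibulin did not. The windows are chr2:125506389-125506688 (minus strand), chr15:85205758-85206057 (plus strand) and chr12:101819070-101819369 (minus strand), printed 5′ to 3′. Capitals mark 3 motifs, each searched on either strand: the GC box, with the letters GGGCGG, the CCAAT box, and the element to which SMAD proteins bind, with the letters CAGACA.
Fbn1: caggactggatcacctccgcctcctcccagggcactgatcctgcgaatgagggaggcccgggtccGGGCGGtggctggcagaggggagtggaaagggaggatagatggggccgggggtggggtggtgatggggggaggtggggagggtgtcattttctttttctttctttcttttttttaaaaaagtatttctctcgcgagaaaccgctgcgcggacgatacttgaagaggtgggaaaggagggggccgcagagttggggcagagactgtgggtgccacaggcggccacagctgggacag
Fbln1: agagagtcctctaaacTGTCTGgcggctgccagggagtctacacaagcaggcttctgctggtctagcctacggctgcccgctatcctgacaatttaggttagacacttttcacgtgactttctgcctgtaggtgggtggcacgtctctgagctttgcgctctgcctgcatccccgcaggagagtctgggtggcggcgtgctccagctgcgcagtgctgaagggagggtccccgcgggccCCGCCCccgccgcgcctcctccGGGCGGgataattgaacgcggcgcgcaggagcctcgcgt
Fbln5: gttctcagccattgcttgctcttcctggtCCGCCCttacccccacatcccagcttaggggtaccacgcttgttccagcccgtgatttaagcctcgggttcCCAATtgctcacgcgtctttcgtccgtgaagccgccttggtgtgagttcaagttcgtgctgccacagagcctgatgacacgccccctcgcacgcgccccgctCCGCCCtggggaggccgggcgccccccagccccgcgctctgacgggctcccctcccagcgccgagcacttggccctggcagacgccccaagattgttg
The Fbn1 window holds 1 GC box, the Fbln1 window 2 GC boxes and 1 CAGACA, and the Fbln5 window 2 GC boxes and 1 CCAAT box, with no overlap between motifs. Their GC content is 60.3%, 64.0% and 65.7%, against a median of 52.7% over all 32851 windows. Fbln1 and Fbln5 each have another window that is not shown. Each of those holds 1 CAGACA and no GC box or CCAAT box, so CAGACA is found near a start of both genes. Over the 9 windows of the 5 genes, several of which overlap each other, 6 held a GC box, against 35.7% of all windows, 4 held CAGACA, against 21%, and 3 held a CCAAT box, against 37.4%. A TATAAA box and the AP-1 site TGANTCA were searched too and were in 0 of the 9 windows, against 13.6% and 7.81% of all windows. These are matches of letters and show neither binding nor use of a site, and Fbn1 and Fbln1 have no motif in common here that Fbln5 lacks.

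Other genes listed with microfibrils and elastic fibres were mostly lower in Lf-/- lung as well, with none past the threshold. Not all of them are known for a part in assembly. Of 25 such genes 21 were tested: 16 lay lower and 5 higher, with a median log2 difference of -0.23, and 0 passed in either direction (smallest limma adjusted p = 0.89, and 0 at an unadjusted p under 0.05). The libraries did not overlap for 6 of these 21 genes in the lower and 2 in the higher direction, against 17.5% and 18.5% of all genes tested. Efemp1, which encodes fibulin-3, had the highest level of this list, with 81.1 and 65.4 FPKM in Lf-/- mice, against 62.9 and 55.8 FPKM in WT mice. Mfap2, for the glycoprotein MAGP-1, had 49.1 and 50.9 FPKM in Lf-/- mice and 47.4 and 48.0 FPKM in WT mice. These genes of the scaffold lay slightly higher in both Lf-/- mice, by 0.29 (SE 0.16) and 0.07 (SE 0.11) on the log2 scale. Ltbp3, a latent TGF-beta binding protein, had 40.7 and 28.1 FPKM in Lf-/- mice and 40.2 and 39.4 FPKM in WT mice. The smallest p values belonged to Adamtsl2, which encodes a glycoprotein that binds fibrillin-1 (17.7 and 22.4 FPKM in Lf-/- mice, 25.2 and 28.6 FPKM in WT mice, difference -0.41, SE 0.16), and Mmrn1, an EMILIN family gene of platelets and endothelium (5.19 and 1.71 FPKM in Lf-/- mice, 6.49 and 7.24 FPKM in WT mice, difference -0.94). Fbn2, the fibrillin of development, lay under 0.1 FPKM in all 4 libraries.

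TGF-beta is stored on microfibrils, and the median of its pathway genes was near level between genotypes. Of 19 genes 18 were tested, with 8 higher, 10 lower, a median of -0.06 and none past the threshold (0 also at an unadjusted p under 0.05 by limma). The libraries did not overlap for 5 of these 18 genes in the lower and 1 in the higher direction. Over all genes tested the shares were 17.5% and 18.5%. Tgfbr2, a receptor subunit, had 86.8 and 88.0 FPKM in Lf-/- mice and 84.9 and 89.2 FPKM in WT mice. Itgb1, the beta-1 integrin chain, had 201 and 184 FPKM in Lf-/- mice and 206 and 211 FPKM in WT mice. Ctgf, a target of the pathway, had 59.5 and 90.9 FPKM in Lf-/- mice and 60.9 and 64.3 FPKM in WT mice, with overlap. Skil, which encodes a repressor of the pathway, had 9.36 and 7.75 FPKM in Lf-/- mice and 10.00 and 13.1 FPKM in WT mice. Skil lay lower in both Lf-/- mice (difference -0.39, limma adjusted p = 0.89).

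Interstitial collagens and proteoglycans, the neighbours of elastic fibres in the septa, had a median of -0.11, with 14 of 19 lower, 5 higher and 0 past the threshold. Col3a1, of type III collagen, had 164 and 125 FPKM in Lf-/- mice and 202 and 87.8 FPKM in WT mice, so that the WT mice again bracketed the Lf-/- mice as they did for Eln. Bgn, the proteoglycan biglycan, had 470.4 and 423 FPKM in Lf-/- mice and 456 and 498 FPKM in WT mice. Sparc had 694 and 903 FPKM in Lf-/- mice and 673 and 548 FPKM in WT mice. Fmod, the proteoglycan fibromodulin, had 4.55 and 1.34 FPKM in Lf-/- mice and 5.20 and 5.15 FPKM in WT mice. Fn1, which encodes fibronectin, had the smallest p of the list, with 45.3 and 41.5 FPKM in Lf-/- mice, against 72.4 and 62.3 FPKM in WT mice (difference -0.62, SE 0.14, unadjusted p = 0.0073, limma adjusted p = 0.89).

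All 10 elastin-degrading proteases tested, of 12, lay lower in Lf-/- lung, with a median of -0.36 and 0 past the threshold; 2 had an unadjusted p under 0.05 by limma, against 5.11% of all genes tested, and 4 had both Lf-/- libraries below both WT libraries, against 17.5%. Mmp2, a gelatinase of mesenchymal cells, had 34.2 and 20.7 FPKM in Lf-/- mice, against 50.5 and 41.0 FPKM in WT mice (difference -0.75, SE 0.27). Mmp12, the macrophage elastase, had 1.00 and 0.578 FPKM in Lf-/- mice, against 1.60 and 1.82 FPKM in WT mice (difference -0.61, SE 0.19). The groups did not overlap for either gene, and limma's adjusted p was 0.89 for both. Ctss, the elastolytic cathepsin of macrophages, had 145 and 45.3 FPKM in Lf-/- mice and 144 and 193 FPKM in WT mice, and Ctsl had 119 and 87.2 FPKM in Lf-/- mice and 118 and 110.2 FPKM in WT mice. Elane, the neutrophil elastase, was listed at 0 and at 0.82 FPKM in Lf-/- mice and had 1.05 and 3.22 FPKM in WT mice. All 8 tested alveolar macrophage markers had a lower mean too, and all 8 were lowest in Lf-/- mouse 2. Only 4 of them lay lower in both Lf-/- mice than in both WT mice, against 17.5% of all genes tested. Their summed levels were 420.04 and 65.0 FPKM in Lf-/- mice and 551 and 646 FPKM in WT mice. The part of macrophages in the protease values was not tested. Of 14 inhibitors 7 were tested, with 5 higher, 2 lower and a median of 0.09, and none passed (0 also at an unadjusted p under 0.05 by limma). Timp2, an inhibitor of metalloproteinases, had 228 and 195 FPKM in Lf-/- mice and 169 and 189 FPKM in WT mice. Timp3, which is bound to matrix, had 228 and 316 FPKM in Lf-/- mice and 234 and 271 FPKM in WT mice. Cst3, the cathepsin inhibitor cystatin C, had 1189 and 898 FPKM in Lf-/- mice and 955 and 793 FPKM in WT mice, and Wfdc2 had 435 and 554 FPKM in Lf-/- mice and 606 and 468 FPKM in WT mice.

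**Figure D5:**
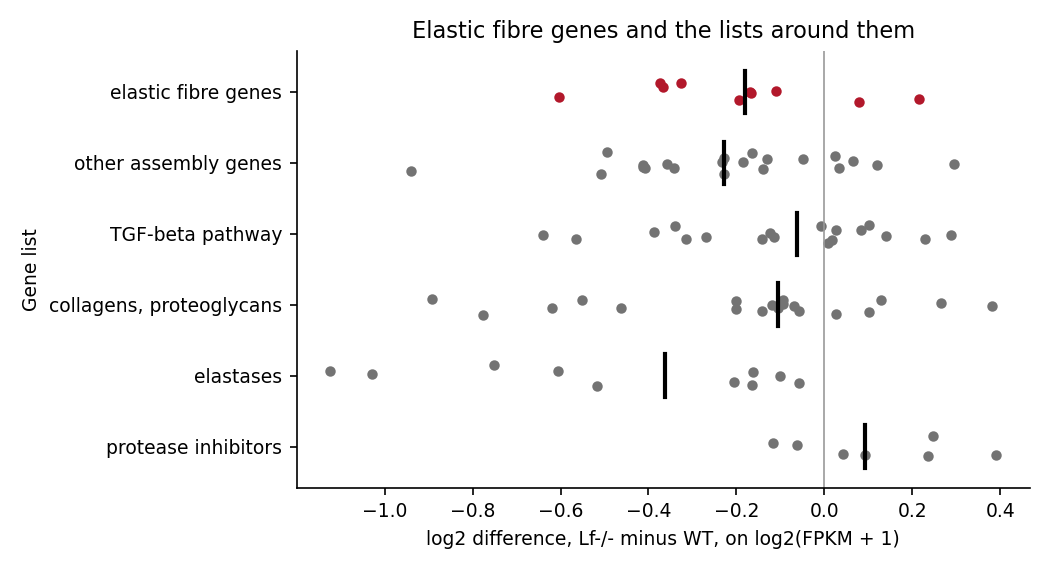
Log2 difference of Lf-/- minus WT on the log2(FPKM + 1) scale for each tested gene of the elastic fibre group (red) and of 5 lists around it (grey); the bar is the list median. The medians run from -0.36 for the proteases to 0.09 for the inhibitors, and that of the elastic fibre genes is -0.18.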

How the data were processed

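RNA of 4 lungs was sequenced, 1 library per mouse. The deposited values are FPKM, 1 per gene symbol; TopHat, Cufflinks, HTSeq, DESeq and the build GRCm38 are named, per the submitters' processing notes, without role or version. The sources used here give neither the annotation and strand setting nor how multiply mapped reads were handled or whether libraries were scaled to each other. Depth is unknown, so no counting interval can be given. Each file held 21545 entries, and values of the 39 symbols listed more than once were added up, which gave 21499 genes. Values were not rescaled.

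The 12573 genes that reached an FPKM of 1 in 2 or more libraries were compared as log2(FPKM + 1) with limma 3.58.1 in R 4.3.3 (lmFit; eBayes with a mean-variance trend, 2 residual and 2.62 prior degrees of freedom), with genotype as sole term and Benjamini-Hochberg adjustment over all genes tested at 0.05. Intervals are at 95%. Genes were named by a rule: all members, then from each list up to 3 by level and 2 by p, the 5 genes nearest to Eln, Ltf and Y-linked genes; lists of cell markers are given mainly by their sums. Pi16, Dcn, Lum, Scara5, Dpt, Fbn2, Elane, Mapk7 and Gm9913 were named outside it, after their values were seen, to show a shared order or a limit, and 1 gene that the rule takes is not reported here. The members and lists were chosen with earlier results of these data known. Positions are from GENCODE vM21 (GRCm38), promoters from RefSeq (GRCm38.p6). Tables and figures used Python 3.11.15, pandas 2.3.3, numpy 2.4.6 and matplotlib 3.10.9. Alternatives were a pseudocount of 0.1 or 0.5, testing every gene or those with a mean FPKM from 5 upwards, scaling libraries by median ratios or by quantiles, leaving out the 20 most abundant genes with rescaling, a constant prior variance, robust eBayes, the mouse number as a replicate block, and leaving out each library.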

Additional observations from a re-analysis of the deposited data

How the results depend on the processing

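No elastic fibre gene passed the threshold under any of 14 alternatives (smallest adjusted p = 0.634), and of 140 member results 134 kept their direction. The 6 that turned all came from leaving out a library, over which the log2 difference ran from -0.46 to 0.24 for Eln, -0.44 to 0.11 for Fbln5, -0.70 to 0.31 for Lox, -0.084 to 0.52 for Loxl1 and -0.31 to 0.47 for Ltbp4. The 10 other alternatives turned none of 100. Changing the filter, the prior variance or eBayes, or adding the replicate block, left each member's log2 difference unchanged by construction. Their share of the 100 and of the 134 therefore tests the threshold only, not the direction. Of these 10 alternatives, only the pseudocounts, the scalings and the rescaling without the most abundant genes could have turned a direction. The median over the members lay between -0.35 and -0.10, and their summed ratio between 0.836 and 0.974, over the libraries left out. The members whose libraries did not overlap numbered 2 with all 4 libraries and 4 to 8 with a library left out, where 1 mouse stands on one side. Over all genes, 3 passed, of which 2 were the Y-linked Eif2s3y and Ddx3y. With no filter 1 gene passed, and with the replicate block 0. A lone mouse left in a group was assumed to vary like the others. Mouse numbers name separate animals, and same-numbered mice deviated in opposite directions (correlation -0.34 over genes tested); the crossed pairing, chosen after seeing the data, gave 4 genes. With unknown depth and 2 mice a group, the intervals of single members allow differences of up to 1.81 on the log2 scale.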
